A study of Homo sapiens with 14 samples.

Results

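Retained-intron transcripts are annotated transcripts of a gene in which sequence that other transcripts of the same gene remove as an intron stays in the RNA. They were taken from the transcripts quantified in this study by their GENCODE release 44 type, retained_intron, with no measured value entering the choice. This gave 29271 of 228754 transcripts, from 9920 genes. MDA-MB-231 cells, an established human line of triple-negative breast cancer, were sequenced as 14 polyA RNA libraries in 7 groups of 2. One group was the control, for which the labels give no compound and the sources differ on whether vehicle was added, and the other 6 received 5 µM RBI2 or 5 µM CX-5461 and were labelled 10, 30 or 120 min. RBI2 and CX-5461 are small molecules that reduce ribosome production, and CX-5461 is known as an inhibitor of RNA polymerase I. Every comparison with the control used the same 2 libraries, and nothing states that the replicates were separate cultures, so the p-values measure the spread between these libraries only. The deposited files carry other time tags than the labels, so every statement on time below holds for the label. All values are of bulk RNA, in which fewer cells of a kind and less RNA per cell cannot be told apart.

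An intron is removed when the spliceosome joins the exons at the 5′ and 3′ splice sites, and serine/arginine-rich (SR) proteins and hnRNP proteins decide how well a site is used. A transcript that keeps an intron is often held in the nucleus or, once exported, degraded by nonsense-mediated decay, and several splicing regulators are known to limit their own output by leaving an intron or exon of their own pre-mRNA in such a form. In polyA-selected RNA the reads of a stable intron-containing transcript and those of a pre-mRNA that is not yet spliced cannot be told apart. Ribosomal protein genes and the host genes of small nucleolar RNAs (snoRNAs, which guide the chemical modification of ribosomal RNA and are mostly released from introns) are among the most strongly transcribed genes of a growing cell, so their introns pass through the spliceosome in large numbers.

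Most of the annotated members were short and partial. Their median length was 753 bases, against 1608 for protein-coding transcripts, and 28412 lay in protein-coding genes and 751 in genes of long noncoding RNA. A whole intron of the gene's canonical transcript was held by 8360 of them, 20488 only began or ended inside one, and 423 did neither. Bases that lie in no exon of any transcript of the gene of another type are called intron-only here, so a retained intron that another type of transcript also holds does not count. The median member had 33.4% intron-only bases, and 957 had none. A read was assigned to 22335 members in at least 1 library and to 6936 in none. The filter on low counts left 8946 members of 4434 genes to test and removed 20325.

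The splice sites of the introns that carry the main results are printed here from the GRCh38 genome, with introns numbered along the canonical transcript. For a 5′ site the last 3 bases of the exon and the first 6 of the intron are given, and for a 3′ site the last 20 bases of the intron and the first 3 of the exon. The capitals mark the GT that opens an intron and the AG that closes it. They come from members that were lowest in the CX-5461 10 min libraries or that separated RBI2 from CX-5461. RPS16-206 holds all of intron 2 of RPS16 (chr19:39433762-39435606, minus strand, 1845 bases). RPLP0-226 holds introns 1 and 2 of RPLP0, of which intron 2 (chr12:120199486-120200729, minus strand, 1244 bases) is shown. RPL11-202 holds intron 4 of RPL11 (chr1:23694792-23695797, plus strand, 1006 bases). RPS13-207 holds intron 4 of RPS13 (chr11:17075198-17075453, minus strand, 256 bases). SNHG3-202 begins inside intron 1 of SNHG3 (chr1:28506085-28508127, plus strand, 2043 bases), in which the annotation lists the snoRNA SNORA73A. PTBP1-206 holds intron 11 of PTBP1 (chr19:807903-808359, plus strand, 457 bases). HNRNPL-206 holds intron 7 of HNRNPL (chr19:38840377-38840487, minus strand, 111 bases) and begins inside intron 6.
RPS16 intron 2, 5′ site: aagGTgctg
RPS16 intron 2, 3′ site: ttcattccccattcctttAGctg
RPLP0 intron 2, 5′ site: atcGTaagt
RPLP0 intron 2, 3′ site: ctctggcttgttttttgtAGcaa
RPL11 intron 4, 5′ site: gtgGTatga
RPL11 intron 4, 3′ site: gttggttattcctgggacAGgtg
RPS13 intron 4, 5′ site: aagGTaagc
RPS13 intron 4, 3′ site: gcaccaaattttatttttAGgat
SNHG3 intron 1, 3′ site: attaatatcttgttttgcAGgat
PTBP1 intron 11, 5′ site: tcgGTatgt
PTBP1 intron 11, 3′ site: ccatccctgggcttttgaAGgcg
HNRNPL intron 7, 5′ site: atgGTgagg
HNRNPL intron 7, 3′ site: ctttccttcccaccccccAGgag
All of these introns open with GT and close with AG, as did 98.6% of the 6801 introns held in whole or in part by members of the genes tested.

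The libraries held between 14112299 and 24849354 estimated reads. The cells had high levels of VIM (2745 to 3336 counts scaled to the library total, CPM) and CD44 (882 to 1121 CPM), markers of mesenchymal breast cancer cells. The estrogen receptor gene ESR1 and the epithelial cadherin gene CDH1 stayed at or below 0.239 and 0.303 CPM, as did the leukocyte gene PTPRC at or below 0.125 CPM, while SPARC was between 8.81 and 11.7 CPM and EPCAM between 9.31 and 14.5 CPM. Control replicate 2 stood apart from the other libraries. Mitochondrial transcripts took 20.6% of its reads, against 8.14% to 11.3% in the others, and the ribosomal protein genes took 4.04%, against 4.56% to 6.25%. The counts of genes called against the control are therefore given with and without this library.

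Retained-intron transcripts took between 4.01% and 4.67% of the assigned reads, with 95% Wilson intervals no wider than 0.0213 percentage points, which cover counting error only. The control libraries were at 4.45% and 4.01%. The CX-5461 libraries were at 4.20% and 4.16% (10 min), 4.40% and 4.67% (30 min) and 4.41% and 4.20% (120 min), and the RBI2 libraries at 4.44% and 4.60%, 4.40% and 4.42%, and 4.61% and 4.32%. The compounds overlapped, with 4.46% ± 0.117 for RBI2 and 4.34% ± 0.194 for CX-5461 (SD, n = 6 each). Without the 10 members with the most reads the means were 3.30% ± 0.115 and 2.99% ± 0.172, a difference of 0.305 percentage points against 0.123 with them. The 10 members with the most reads took 23.2% to 33.6% of all retained-intron reads, and 11.1% in control replicate 2. The 4133 members with under 10% of intron-only bases took 47.3% of these reads.

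A measure in which every gene counts alike is the share of its own reads that a gene had on retained-intron transcripts, which could be tested in 4582 of the 9878 genes with both kinds of transcript. Its median over these genes was lowest in the CX-5461 10 min libraries, at 4.10% and 3.95%, and the RBI2 120 min libraries were at 5.94% and 5.54%. The control libraries were at 4.63% and 5.54%, so that control replicate 2 lay as high as the lower RBI2 120 min library. The CX-5461 libraries labelled 30 and 120 min lay between 4.23% and 4.83%, and the RBI2 libraries labelled 10 and 30 min between 4.55% and 5.20%. MALAT1, an abundant unspliced nuclear RNA, was at 3777 and 3905 CPM in the RBI2 120 min libraries and between 1335 and 2850 CPM elsewhere. NEAT1, another nuclear RNA, was at 199.6 and 177 CPM there, 110 and 88.2 CPM in CX-5461 labelled 10 min and 126 to 204 CPM elsewhere, so it was not highest in RBI2 labelled 120 min. The part of nuclear RNA in the retained-intron shares was not tested.

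**Figure D1:**
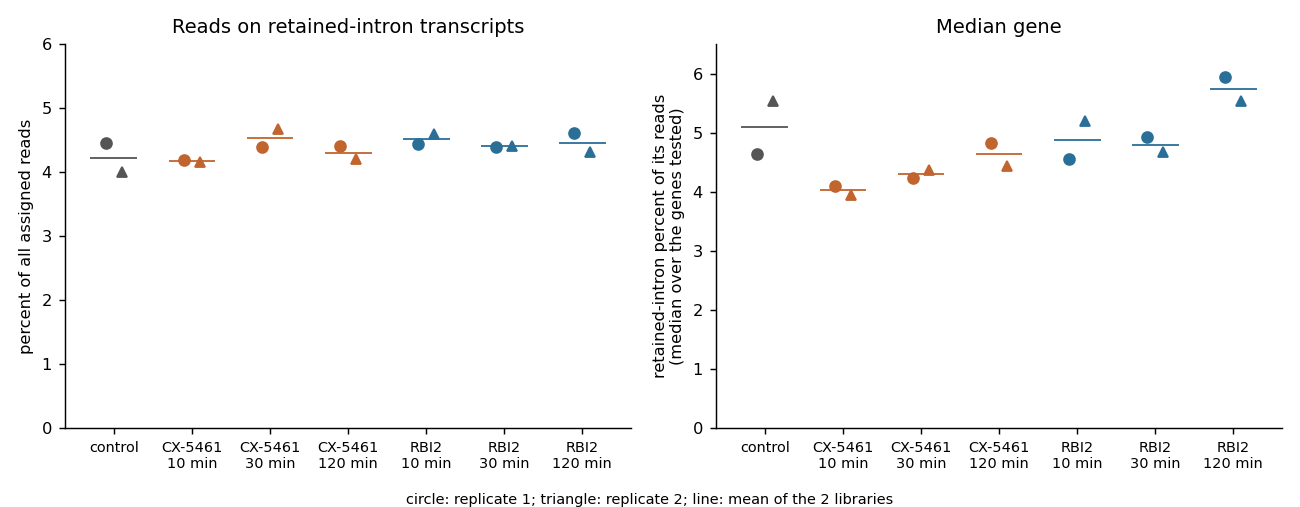
The left panel shows the percent of all assigned reads on retained-intron transcripts in each of the 14 libraries, by group. The right panel shows the median over 4582 genes of the retained-intron percent of a gene's reads. Each point is 1 library, each short line the mean of the 2, and the vertical axes start at 0. The library totals overlap between 4.01% and 4.67%, while the median gene is lowest in both CX-5461 10 min libraries (4.10% and 3.95%).

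The most abundant members were mostly transcripts of genes for translation factors and ribosomal proteins. By TPM (a level scaled to transcript length and library total), EEF1A1-208 led with a median of 6560 over the libraries, followed by EEF1A1-209 with 2308 and RPL14-208 with 1920. EEF1A1 encodes the factor that brings aminoacyl-tRNA to the ribosome. EEF1A1-208 holds intron 6 (89 bases), has 4.09% intron-only bases, and took 59.9% to 88.8% of the reads of its gene in 13 libraries. In control replicate 2 it took 1.11%, with 102 CPM against 6790 CPM in control replicate 1 and 4889 to 8090 CPM elsewhere. The total for the gene was 7995 CPM in that library and 7591 to 11132 CPM in the others, so the gap lay in the division of reads between the transcripts of the gene.

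ACTG1-211, of the cytoplasmic gamma-actin gene, also stood low in control replicate 2, with 22.4% of the reads of its gene against 43.2% to 50.1% elsewhere. RPL14-208 took 97.1% to 98.6% of the reads of RPL14 and RPS28-201 took 94.9% to 97.9% of those of RPS28, both proteins of the cytosolic ribosome. Only 1.64% of the bases of RPL14-208 and 6.59% of those of RPS28-201 were intron-only. RPL4-203 took 71.5% to 77.4% of the reads of its gene, and NCL-210, of the nucleolar protein nucleolin, had a median level of 576 TPM. None of the 10 members with the highest mean TPM passed the test in any comparison.

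The first comparison asked what CX-5461 labelled 10 min did relative to the control, and retained-intron shares were mostly lower. Of the 4582 genes, 52 had a lower and 1 a higher share (edgeR quasi-likelihood test, adjusted p under 0.05 and a change of the ratio of retained-intron to other reads of at least 1 on the log2 scale), which is 1.16% of the genes tested (1.13% lower). The median change over all genes was -0.37 on the log2 scale, and 2980 genes lay on the lower side. Among single transcripts, 42 members were lower and 3 higher, that is 45 of 8946 or 0.503%, while 0.316% of all 54804 transcripts tested were called. The count of transcripts moved widely with the test and with the libraries fitted, by amounts given under the processing at the end. The counts rested on which libraries were in the fit: without control replicate 2 the share test called 1 higher and 12 lower genes, without control replicate 1 it called 116 and 394, and without either CX-5461 10 min library it called 8 or 7 lower. Leaving out a library of another group gave between 20 and 33 calls. Of the shares given with values below, those of RPS3A, RPS16, GAS5, PRPF19 and NSA2 still passed without control replicate 2, while RPSA (edgeR adjusted p = 0.051), RPLP0 (0.062), RPS13 (0.064), PABPC1 (0.065), RACK1 (0.12), SNHG3 (0.13) and PTBP1 (0.13) did not, all with the same direction. Of the transcripts named below, THBS1-204 did not pass without it (edgeR adjusted p = 0.097). The same test on the 4 libraries alone called 0 genes, limma on TPM called 21, and a fit with a replicate block called 35. The alternatives counted here and below include the p before adjustment, which keeps every call by its rule. Under the alternatives the transcript call was kept in 4 settings and lost in 17 for THBS1-204. It was kept in 6 and lost in 15 for RPLP0-226, 7 and 14 for PTBP1-206, and 9 and 12 for PABPC1-203. For GAS5-230 and DDX39B-217 it was 10 and 11, for TAF1D-215 17 and 4, for CCN1-206 and ACTG1-214 18 and 3, and for SNHG3-202 20 and 1.

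Cytosolic ribosomal protein genes made up 21 of the 52 genes. Of the 81 genes on this list, 67 had retained-intron transcripts, 229 in all, and 65 could be tested. The genes that fell included RPL3, RPL13A, RPL21, RPL24, RPL27A, RPL32, RPL37A, RPLP0, RPLP1, RPLP2, RPS3A, RPS7, RPS13, RPS16, RPS19, RPS20, RPS24, RPS25, RPS26 and RPSA, and none of the list was called higher. Of these, RPL13A, RPL32, RPLP2, RPS3A, RPS16 and RPS24 still passed without control replicate 2. On the lower side were 58 of 65, with a median of -1.74, against -0.37 over all genes. Without control replicate 2 the list had 7 lower calls and a median of -1.31, against -0.24 over all genes, and without control replicate 1 it had 30 lower calls and a median of -1.79. Without each CX-5461 10 min library it had 5 and 4 lower calls, without a library of another group 11 to 16, with a replicate block 15, with limma on TPM 2 and with the 4 libraries alone 0. The median stayed between -1.29 and -1.95 under every setting tried, and 58 or 59 of 65 genes lay on the lower side whichever library was left out.

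Library by library, the median share of the 65 ribosomal protein genes was 0.385% and 0.324% in the CX-5461 10 min libraries and 1.09% and 1.02% in the control. It was 1.25% and 1.01% in CX-5461 labelled 30 min, and 0.906% and 1.01% in CX-5461 labelled 120 min. The RBI2 libraries were at 1.24% and 1.25% (10 min), 1.59% and 1.47% (30 min) and 2.06% and 2.25% (120 min). The lowest group and the highest group thus overlapped with no other group. The other tested genes had a median between 4.02% and 6.03%, with the same groups at the ends except that control replicate 2, at 5.67%, lay above the lower RBI2 120 min library at 5.63%.

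**Figure D2:**
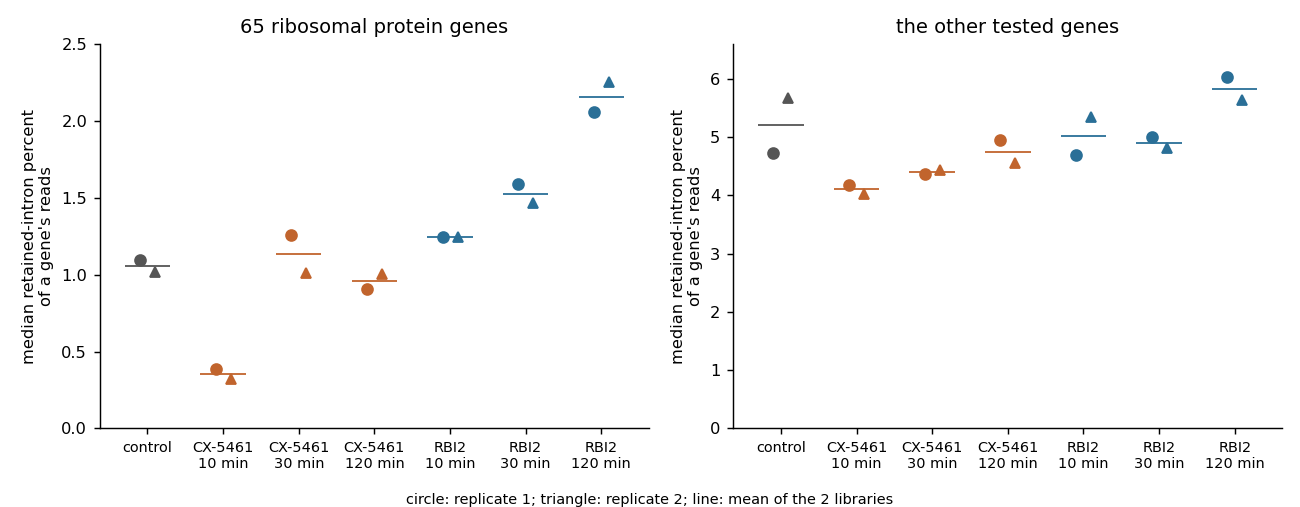
Median retained-intron percent of a gene's reads in each library, over 65 ribosomal protein genes (left) and over the other tested genes (right). Each point is 1 library, each short line the mean of the 2, and the axes start at 0 and differ in range. In the left panel both CX-5461 10 min libraries (0.385% and 0.324%) lie below, and both RBI2 120 min libraries (2.06% and 2.25%) above, all others.

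The level of the retained-intron transcripts was lower as well. The median level of a ribosomal protein gene's retained-intron transcripts was 3.10 and 2.51 CPM in the CX-5461 10 min libraries, 6.96 and 7.11 CPM in the control, 5.84 to 8.57 CPM in the later CX-5461 libraries and 13.9 and 13.8 CPM in the RBI2 120 min libraries. The ribosomal protein genes as a whole took 5.69% and 5.5% of the reads in the CX-5461 10 min libraries, 5.60% and 4.04% in the control and 4.56% to 6.25% in the others. Against control replicate 2 the rest of the genes was thus higher too, for example RPLP0 as a whole at 2322 and 2263 CPM against 2283 and 1167 CPM in the control. A gene of this list had a median of 44 to 239 retained-intron reads per library, which is the depth behind these shares.

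RPS3A, of the small subunit, showed shares of 0.894% and 0.864% in the control and 0.114% and 0.104% in CX-5461 labelled 10 min (log2 change -3.01 ± 0.28, edgeR adjusted p = 0.0047). The other libraries lay between 0.373% and 1.24%. The value after ± here and below is an approximate SE, the size of the log2 change over the square root of its F statistic. Where a group had no retained-intron read, it does not measure the precision of the change. RPSA, the small-subunit protein also known as the laminin receptor, went from 1.57% and 2.22% to 0.350% and 0.180% (-2.91 ± 0.37, edgeR adjusted p = 0.014), with 0.906% to 2.80% in the others. The groups did not overlap, and in both genes the lowest libraries after CX-5461 labelled 10 min were those of CX-5461 labelled 120 min.

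RPS16 was at 1.91% and 1.75% in the control, 0.385% and 0.482% in CX-5461 labelled 10 min and 3% and 2.90% in RBI2 labelled 120 min. The change from the control was -2.11 ± 0.27 for CX-5461 labelled 10 min (edgeR adjusted p = 0.014). The member behind it, RPS16-206, has 77.2% intron-only bases and was at 13.6 and 12 CPM in the control, 3.32 and 2.51 CPM in CX-5461 labelled 10 min, and 22.8 and 22.1 CPM in RBI2 labelled 120 min. RPLP0, the stalk protein of the large subunit, fell from 1.25% and 2.10% to 0.263% and 0.377% (-2.38 ± 0.34, edgeR adjusted p = 0.017). RPLP0-226 went from 4.68 and 2.66 CPM to 0.507 and 0.513 CPM, and stood at 12.5 and 9.46 CPM in RBI2 labelled 120 min. For these members the control lay between the 2 extremes.

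RPL11-202, of a large-subunit protein that also binds MDM2, was at 8.60 and 4.30 CPM in the control, 0.732 and 0.627 CPM in CX-5461 labelled 10 min and 2.28 to 10.5 CPM elsewhere (log2 change -3.23 ± 0.42, edgeR adjusted p = 0.019). The share of the whole gene RPL11 showed no such difference, at 28.4% and 22.4% in the control and 25.2% and 27.5% in CX-5461 labelled 10 min, because the other retained-intron transcript of RPL11 holds most of these reads. RPL36A-204, which has 88.6% intron-only bases, was at 6.14 and 4.53 CPM in the control and 0.675 and 0.513 CPM in CX-5461 labelled 10 min (-3.15 ± 0.32, edgeR adjusted p = 0.0082), with 3.03 to 13.8 CPM elsewhere. Under the alternatives the call was kept in 6 settings and lost in 15 for RPL11-202, and kept in 16 and lost in 5 for RPL36A-204.

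In snoRNA host genes the same comparison gave 3 lower shares of 25 tested, in GAS5, RACK1 and SNHG3, with a median of -0.75 over the list, and 6 of 92 members were lower. Over all genes 1.13% were called lower with a median of -0.37, and 0.208% of all transcripts were called lower. GAS5 is a noncoding snoRNA host whose RNA is quickly degraded during translation. Retained-intron transcripts took 75.4% and 80.2% of its reads in the control, 31.4% and 36.9% in CX-5461 labelled 10 min, 51.8% to 61.9% in the later CX-5461 libraries and 67.6% to 78.5% in the RBI2 libraries. The log2 change from the control was -2.76 ± 0.33 (edgeR adjusted p = 0.0099). GAS5-230, which runs through 9 whole introns, was at 12.5 and 7.34 CPM in the control, 1.46 and 1.14 CPM in CX-5461 labelled 10 min and 4.89 to 27.2 CPM elsewhere. The gene as a whole was also low in CX-5461 labelled 10 min, at 111 and 103 CPM, against 204 and 162 CPM in the control and 141 to 210 CPM in the others.

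SNHG3 showed the smallest adjusted p of any member in this comparison among those named. SNHG3-202 was at 24.0 and 20.9 CPM in the control, 2.93 and 3.02 CPM in CX-5461 labelled 10 min, 10.9 to 24.6 CPM in the later CX-5461 libraries, 16.6 and 21.4 CPM in RBI2 labelled 10 min and 38.9 to 44.4 CPM in the later RBI2 libraries. The log2 change from the control was -2.92 ± 0.19 (edgeR adjusted p = 0.0012), and 0.208% of all transcripts were called lower. Its share moved less, from 37.3% and 32.9% to 12.1% and 15.0% (-1.79 ± 0.34, edgeR adjusted p = 0.044), since the whole gene was at 23.5 and 19.8 CPM against 64.2 and 56.3 CPM. The call for this share was kept in 3 settings and lost in 16 under the alternatives. RACK1, a protein of the small ribosomal subunit that anchors kinases, went from 2.19% and 2.15% to 0.827% and 0.792% (-1.45 ± 0.26, edgeR adjusted p = 0.04) with no lower total, and turned to 0.45 (edgeR adjusted p = 0.9) with transcripts of no defined coding sequence as the rest of the gene. TAF1D is a snoRNA host that encodes a subunit of the RNA polymerase I initiation factor SL1, and its member TAF1D-215 was at 41.4 and 42.2 CPM in the control, 12.9 and 10.3 CPM in CX-5461 labelled 10 min and 27.8 to 57.1 CPM elsewhere (-1.85 ± 0.20, edgeR adjusted p = 0.011). The whole gene was at 125 and 120 CPM there, against 241 and 219 CPM in the control and 200.3 to 255 CPM elsewhere, and its share did not pass.

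In genes for the splicing machinery the same comparison gave single calls, to be read against 1.13% of all genes called lower and a median of -0.37. Of 14 tested genes for hnRNP proteins 1 fell, PTBP1, and 13 lay on the lower side with a median of -0.55. PTBP1 encodes a repressor of exon use that acts on its own pre-mRNA. PTBP1-206 was at 3.29 and 2.97 CPM in the control, 0.394 and 0.342 CPM in CX-5461 labelled 10 min and 1.70 to 5.52 CPM elsewhere (-3.06 ± 0.37, edgeR adjusted p = 0.016), and the share of the gene went from 2.52% and 4.14% to 0.684% and 0.789%. With transcripts of nonsense-mediated decay as the rest of the gene, the share change of PTBP1 turned to 5.95 (edgeR adjusted p = 0.84). Of 27 tested genes of the core spliceosome 1 fell, PRPF19, a scaffold of the catalytic complex. It had no retained-intron read in either CX-5461 10 min library, but 1.95% and 10.0% in the control libraries and 0% to 3.34% elsewhere, so that its libraries overlapped with others. DDX39B-217, of an RNA helicase for spliceosome assembly and mRNA export, was at 10.8 and 11.5 CPM in the control, 2.31 and 2.11 CPM in CX-5461 labelled 10 min and 6.12 to 13.8 CPM elsewhere (-2.33 ± 0.30, edgeR adjusted p = 0.019).

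None of 15 tested genes for SR proteins and their kinases was called, with a median of -0.05. The same held for 9 genes of the RNA polymerase I machinery (median -0.83), 6 immediate early genes (-0.02), 5 of the minor spliceosome (0.12) and 4 genes with detained introns known from earlier work (-0.25). Over all genes 1.13% were called lower, with a median of -0.37. Of 24 genes for the RNA exosome and polyadenylation (median -0.69) 1 fell, PABPC1, the main cytoplasmic poly(A)-binding protein. Its member PABPC1-203 was at 12.7 and 10.5 CPM in the control, 1.46 and 1.14 CPM in CX-5461 labelled 10 min and 3.06 to 15.4 CPM elsewhere.

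A further set of members had no read in either CX-5461 10 min library. CCN1 is a secreted matricellular protein and an immediate early gene. CCN1-206 was at 36.4 and 14.4 CPM in the control, 0 in both CX-5461 10 min libraries and 2.30 to 43.1 CPM elsewhere, which makes it at least 299-fold lower than the control when 3 counts over the group are taken as the floor (edgeR adjusted p = 0.011). The whole gene was also at 95.7 and 91.8 CPM there, against 500 to 861 CPM in the other 12 libraries. ACTG1-214 (at least 36.7-fold lower, edgeR adjusted p = 0.012) and THBS1-204 (at least 14.7-fold lower, edgeR adjusted p = 0.047) were at 0 in the same pair, from 3.35 and 2.89 CPM and from 1.33 and 1.17 CPM in the control.

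The single higher share in this comparison was in NSA2, a factor for the maturation of the large ribosomal subunit. Retained-intron transcripts took 0.611% and 0% of its reads in the control, 15.6% and 16.6% in CX-5461 labelled 10 min (6.47 ± 1.17, edgeR adjusted p = 0.04) and 5.73% to 24.9% in all other libraries. It was therefore the control that stood low, and the other 5 treated groups did not pass the test. Under the alternatives the call for NSA2 was kept in 5 settings and lost in 16.

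**Figure D3:**
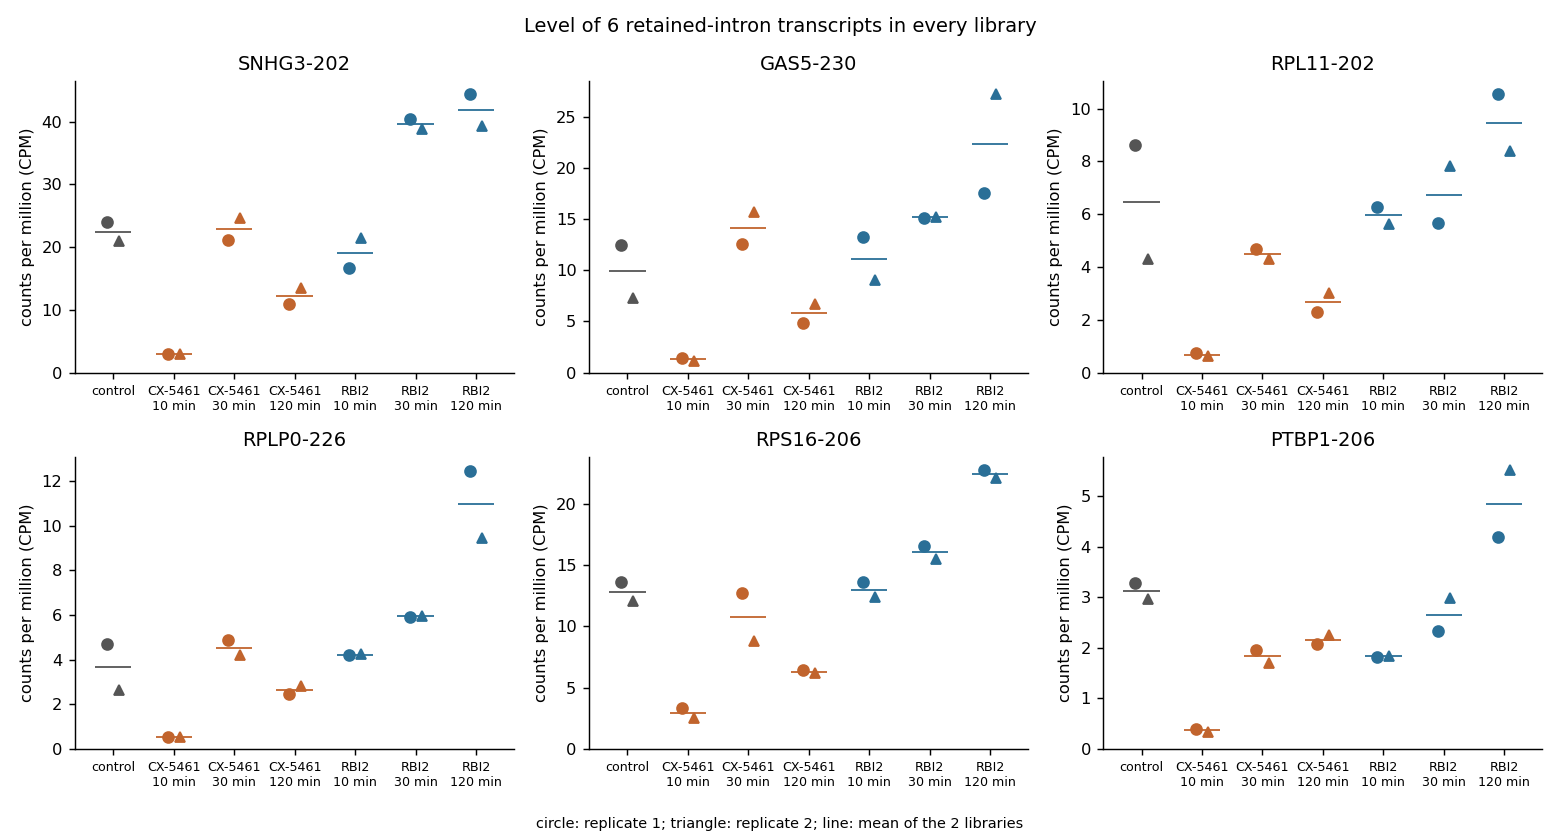
Level in CPM of 6 retained-intron transcripts (SNHG3-202, GAS5-230, RPL11-202, RPLP0-226, RPS16-206 and PTBP1-206) in each of the 14 libraries, by group. Each point is 1 library, each short line the mean of the 2, and each axis starts at 0. In all 6 the CX-5461 10 min libraries are the lowest, for example 2.93 and 3.02 CPM for SNHG3-202.

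CX-5461 labelled 10 min was also compared with CX-5461 labelled 30 and 120 min, a comparison that needs no control library. Here 62 genes had a lower share and none a higher one, 1.35% of the genes tested, and the median over all genes was -0.13. Of the ribosomal protein genes 23 were lower and 59 of 65 lay on the lower side, with a median of -1.06. This count was 5 and 7 without each CX-5461 10 min library, 7 and 15 without each 30 min library, 16 and 6 without each 120 min library and 17 to 24 without a control or RBI2 library. It was 18 with a replicate block, 3 with limma on TPM and 0 with the compared libraries alone, while 57 to 59 of 65 genes lay on the lower side whichever library was left out. Of single members 42 were lower and 1 higher, where 0.246% of all transcripts were called. The count of genes was 6 and 20 without each CX-5461 10 min library, 14 and 35 without each 30 min library, 39 and 9 without each 120 min library, and 35 to 80 when a control or RBI2 library was left out. RPS13 changed by -2.73 ± 0.27 (edgeR adjusted p = 0.0039) and RPS3A by -2.23 ± 0.24 (edgeR adjusted p = 0.0068). RPS13 stood at 0.421% and 0.287% in CX-5461 labelled 10 min and at 3%, 1.97%, 1.97% and 2.28% later, whereas the control libraries were at 1.46% and 1.68%.

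SNRNP70, the U1 snRNP protein that takes part in reading the 5′ splice site, was at 0.592% and 1.3% in CX-5461 labelled 10 min and at 2.37%, 2.37%, 4.11% and 4.77% later (-1.90 ± 0.33, edgeR adjusted p = 0.028). SNHG3 (-1.81 ± 0.29, edgeR adjusted p = 0.019), RACK1 (-1.64 ± 0.23, edgeR adjusted p = 0.014) and PABPC1 (-3.20 ± 0.43, edgeR adjusted p = 0.013) were lower as well. Counted by order alone, both CX-5461 10 min libraries lay below the other 12 in 39 of the 65 ribosomal protein genes and in 8 of 25 snoRNA host genes, against 393 of all 4582 genes (8.58%). The same count was 2 of 15 for SR proteins, 2 of 14 for hnRNP proteins, 2 of 27 for the core spliceosome, 1 of 5 for the minor spliceosome, 5 of 24 for the RNA exosome and polyadenylation, 1 of 4 for genes with known detained introns, 0 of 6 for immediate early genes and 0 of 9 for RNA polymerase I.

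CX-5461 labelled 30 and 120 min changed no gene's share against the control by the test, with 0 of 4582 genes called (0%) at either label. Without control replicate 1 the counts were 353 at 30 min and 265 at 120 min, and without control replicate 2 they stayed at 0. By the p before adjustment (under 0.05, same limit on the fold) there were 91 higher and 243 lower genes at 30 min and 143 and 260 at 120 min. At the level of transcripts 1 member was higher and 1 lower at 30 min (0.0693% of all transcripts called), namely RNF10-221 and ACY1-227, and 2 were higher at 120 min (0.0894%), RNF10-221 and CMBL-204. The median of the ribosomal protein genes was -0.08 at 30 min and -0.38 at 120 min, against -0.18 and -0.17 over all genes.

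RBI2 labelled 10 and 30 min gave no gene with a changed share against the control either (0% at both labels). Without control replicate 1 the counts were 250 at 10 min and 322 at 30 min, and without control replicate 2 they stayed at 0. At an unadjusted p under 0.05 there were 131 higher and 141 lower genes at 10 min and 162 and 178 at 30 min. Of single members, 1 was higher (RNF10-221) and 1 lower (HNRNPH1-242) at 10 min, where 0.0748% of all transcripts were called. At 30 min 2 were higher (RNF10-221 and CMBL-204) and 2 lower (FBXW5-205 and FDPS-219), where 0.1% were called.

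At 120 min the RBI2 libraries had 1 gene with a higher and 1 with a lower share, 0.0436% of those tested, while 268 were called without control replicate 1 and 0 without control replicate 2. RPS10, of the small subunit, was at 0.0466% and 0.0512% in the control, 0.636% and 0.573% in RBI2 labelled 120 min and 0.0219% to 0.314% elsewhere (3.70 ± 0.43, edgeR adjusted p = 0.022). This call was lost without control replicate 2 (edgeR adjusted p = 0.10), without either RBI2 120 min library (0.14 and 0.18), without either library of CX-5461 10 min or RBI2 10 min (0.053 to 0.058), with a replicate block (0.069), with limma on TPM (0.078) and with the compared libraries alone (0.58). The retained-intron level behind it was low, at 0.380 and 0.313 CPM in the control and 5.13 and 4.16 CPM in RBI2 labelled 120 min. NUMA1, a protein that organises the poles of the mitotic spindle, was at 4.76% and 3.84% in the control, 0.0539% and 0.0607% in RBI2 labelled 120 min and 3.26% to 11.3% elsewhere (-6.26 ± 0.57, edgeR adjusted p = 0.0057).

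NUMA1-217 carried this, with 12.1 and 9.22 CPM in the control, 8.20 to 25.8 CPM in the other groups and 0 in both RBI2 120 min libraries, at least 110-fold lower than the control. It begins or ends inside 1 intron of the canonical transcript but has no intron-only base, and the whole gene was highest in the same 2 libraries, at 402 and 402 CPM against 210 to 327 CPM elsewhere. ZMIZ2-208 and ARID1B-215, of a transcriptional coregulator and a subunit of the BAF chromatin remodeller, were likewise at 0 in RBI2 labelled 120 min alone, from 8.86 and 39.2 CPM and from 5.06 and 8.75 CPM in the control (edgeR adjusted p = 0.021 and 0.035). The whole gene ZMIZ2 was highest in the same 2 libraries, at 99.7 and 96.5 CPM against 73.1 to 85.6 CPM elsewhere. ARID1B as a whole was at 20.8 and 17.1 CPM there and 12.4 to 22.7 CPM elsewhere. Under the alternatives the call was kept in 20 settings and lost in 1 for NUMA1-217. It was kept in 9 and lost in 12 for ZMIZ2-208, and kept in 7 and lost in 14 for ARID1B-215. In all, 2 members were higher and 4 lower at 120 min, where 0.164% of all transcripts were called. This count moved widely with the test and with the libraries fitted, as given at the end.

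Most ribosomal protein genes did not pass the test at this label, and 54 of 65 were on the higher side of the control, with a median of 0.65 against 0.19 over all genes. Without control replicate 2, 57 were on the higher side and none was called, and without control replicate 1, 43 were on the higher side, with 9 called higher and 3 lower. In order, both RBI2 120 min libraries lay above the other 12 in 21 of the 65, against 406 of all 4582 genes (8.86%). Against RBI2 labelled 10 and 30 min no ribosomal protein gene was called, 54 of 65 lay on the higher side, and the median was 0.43 against 0.28 over all genes. In that comparison 1 gene of 4582 was called (0.0218%), NUMA1, which was lower, and 2 members were higher and 3 lower, where 0.108% of all transcripts were called.

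RBI2 was then set against CX-5461 at the same label and dose. At 10 min 58 genes had a higher share in RBI2 and 1 a lower one, 1.29% of the genes tested, and 38 members were higher and 1 lower, where 0.232% of all transcripts were called. Higher shares alone were 1.27% of the genes tested. Ribosomal protein genes made up 21 of the 58, with none called lower and a median of 1.65 against 0.31 over all genes. In place of 21 the list had 5 or 6 calls without a CX-5461 10 min library, 0 without either RBI2 10 min library, 9 to 26 without a library of another group, 15 with a replicate block, 1 with limma on TPM and 0 with the 4 libraries alone. Leaving out a CX-5461 10 min library left 8 or 12 calls, leaving out either RBI2 10 min library left 0, and leaving out a library of another group gave 15 to 86. RPS3A differed by 2.77 ± 0.28 (edgeR adjusted p = 0.0046), with 0.870% and 0.640% in RBI2 and 0.114% and 0.104% in CX-5461. EIF4A2, a translation initiation helicase and snoRNA host, was at 31.6% and 28.4% against 14.7% and 15.7% (1.26 ± 0.24, edgeR adjusted p = 0.043). NABP1, a single-stranded DNA-binding protein, was the lower gene, at 1.11% and 1.33% in RBI2 and 3.96% and 3.46% in CX-5461 (-1.70 ± 0.33, edgeR adjusted p = 0.043). Under the alternatives the call was kept in 5 settings and lost in 16 for EIF4A2, and kept in 4 and lost in 17 for NABP1. The totals of both genes were lower in CX-5461 labelled 10 min as well, with 32.8 and 30.3 CPM against 57 and 53.3 CPM in RBI2 for NABP1, and 249 and 253 CPM against 454 and 430.5 CPM for EIF4A2.

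At 30 min no gene's share differed (0%), with 148 higher and 60 lower in RBI2 at an unadjusted p under 0.05, and 1 member, FBXW5-205, was lower (0.0438% of all transcripts called). At 120 min 1 gene was lower (0.0218%), NUMA1, and 3 members were higher and 2 lower (0.0894%). The higher ones were HNRNPL-206, SNHG3-202 and RPS16-206. Under the alternatives the call was kept in 5 settings and lost in 16 for HNRNPL-206. It was kept in 11 and lost in 10 for SNHG3-202, and kept in 6 and lost in 15 for RPS16-206. HNRNPL encodes a splicing regulator known to act on its own pre-mRNA. HNRNPL-206 was at 27.0 and 22.2 CPM in RBI2 labelled 120 min, 8.68 and 8.59 CPM in CX-5461 labelled 120 min and 16.3 and 12.7 CPM in the control (RBI2 against CX-5461 1.51 ± 0.19, edgeR adjusted p = 0.033). The share of the gene as a whole, 19.1% and 26.8% against 19.8% and 19%, did not pass. The median of the ribosomal protein genes was 0.52 at 30 min and 1.17 at 120 min, with 55 and 57 of 65 on the higher side, against 0.14 and 0.37 over all genes.

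**Figure D4:**
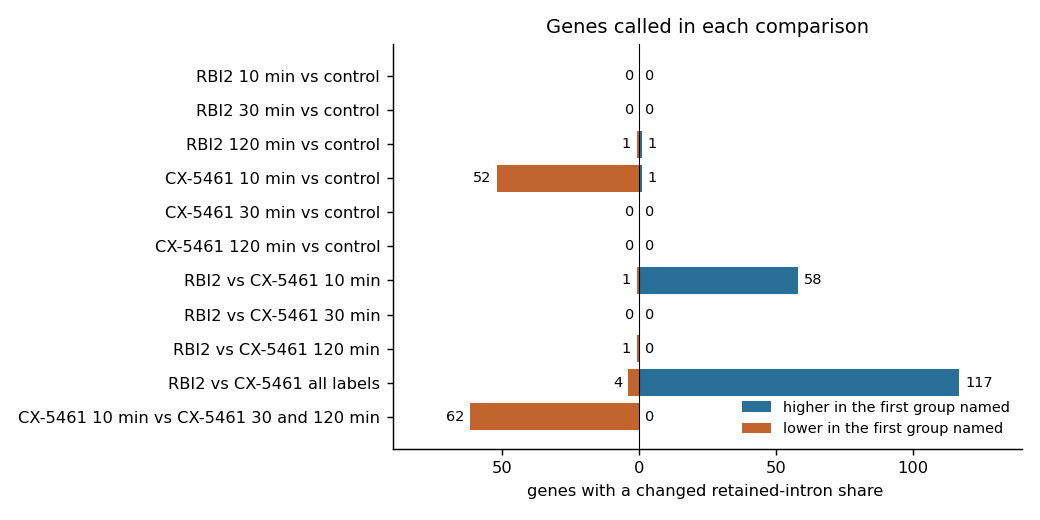
Number of genes, of 4582 tested, with a higher or lower retained-intron share in the comparisons named on the vertical axis (edgeR, adjusted p under 0.05 and a log2 change of the ratio of at least 1). The bars start at 0, with higher genes to the right and lower genes to the left. Most calls lie in the comparisons that contain CX-5461 labelled 10 min (52 lower against the control, 117 higher in RBI2 over all labels), and each of the others has at most 1 in a direction.

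Over all labels, 6 RBI2 against 6 CX-5461 libraries with the label kept as a term, 117 genes had a higher share in RBI2 and 4 a lower one, 2.64% of the genes tested (2.55% higher), and the median over all genes was 0.28. Among members 53 were higher and 8 lower, where 0.378% of all transcripts were called. The number of genes called was 183 and 184 without each control library and fell to between 37 and 94 when any 1 treated library was left out. Of the ribosomal protein genes 30 were higher and none lower, 59 of 65 lay on the higher side, and the median was 1.12. That count of 30 was 18 to 33 when 1 library was left out, 28 with a replicate block, 2 with limma on TPM and 33 with the compared libraries alone. Whether the difference between the compounds itself varied with the label was tested gene by gene, and 0 of 4582 genes passed for any pair of labels, with 221 to 305 at an unadjusted p under 0.05.

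RPS16, chosen after its values were seen, had 1.75%, 1.60%, 2.30%, 2.12%, 3% and 2.90% of its reads on retained-intron transcripts in the RBI2 libraries and 0.385%, 0.482%, 1.57%, 1.04%, 0.838% and 0.913% in the CX-5461 libraries. Every RBI2 library lay above every CX-5461 library, and the log2 difference was 1.52 ± 0.16 (edgeR adjusted p = 0.0034). GAS5 differed in the same way, with 67.6% to 78.5% in RBI2 and 31.4% to 61.9% in CX-5461 (1.51 ± 0.19, edgeR adjusted p = 0.007). SNHG3 was at 29.9% to 57.6% in RBI2 and 12.1% to 42.8% in CX-5461 (1.36 ± 0.19, edgeR adjusted p = 0.0083), so its libraries overlapped across labels but not within a label.

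The largest rises of share were those of PUM3, a PUF-family RNA-binding protein of ribosome biogenesis, and MRPS18B, a protein of the mitochondrial small subunit. PUM3 was at 0% in both control libraries, 2.89% to 7.65% in RBI2 and 0% to 3.31% in CX-5461, so the compounds overlapped (5.39 ± 0.87, edgeR adjusted p = 0.025). The call for PUM3 was kept in 9 settings and lost in 12 under the alternatives. MRPS18B was at 0.252% to 1.22% in RBI2, 0% to 0.194% in CX-5461 and 0.533% and 0.409% in the control (4.77 ± 0.46, edgeR adjusted p = 0.0052). Its compounds did not overlap, and the control lay within the range of RBI2. The retained-intron level of MRPS18B was low, at a mean of 0.947 CPM in RBI2 labelled 10 min and 0.432 CPM in RBI2 labelled 30 min. CX-5461 had no such read at either label, which makes RBI2 at least 11.1-fold and at least 4.33-fold higher by the floor of 3 counts. Among the cytosolic ribosomal proteins RPS19 was at 0.0897% to 0.768% in RBI2 and 0% to 0.181% in CX-5461 (3.82 ± 0.51, edgeR adjusted p = 0.0083). Its retained-intron level was also low, at a mean of 1.10 CPM in RBI2 labelled 10 min. With no such read in CX-5461 labelled 10 min, RBI2 was at least 13.0-fold higher there. RPS29 was at 0.494% to 1.2% and 0.133% to 0.494% (1.93 ± 0.31, edgeR adjusted p = 0.014).

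RPS3A (1.63 ± 0.16, edgeR adjusted p = 0.0033) was higher in RBI2, as were ACTB, the cytoplasmic beta-actin (2.27 ± 0.25, edgeR adjusted p = 0.0034), and PTBP1 (1.07 ± 0.21, edgeR adjusted p = 0.031). Of the core spliceosome, EFTUD2 (1.5 ± 0.29, edgeR adjusted p = 0.029), a GTPase of the U5 snRNP, and SNRNP70 (1.03 ± 0.22, edgeR adjusted p = 0.037) were higher among 27 tested. CCN1 was higher among 6 tested immediate early genes (1.35 ± 0.30, edgeR adjusted p = 0.046). These counts are to be read against 2.55% of all genes called higher. None of 15 genes for SR proteins and their kinases and none of 24 for the exosome and polyadenylation was called. The difference turned to -1.29 for PTBP1 and -0.50 for SNRNP70 with decay transcripts as the rest of the gene, and to -0.036 for CCN1 with transcripts of no defined coding sequence, none of them past the threshold. Apart from these reversals, the call was kept in 8 settings and lost in 12 for both PTBP1 and SNRNP70. It was kept in 6 and lost in 15 for CCN1, and kept in 8 and lost in 13 for EFTUD2.

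The 4 genes with a lower share in RBI2 included NUMA1, NABP1 and IDH3A, the catalytic subunit of mitochondrial isocitrate dehydrogenase. The share of NUMA1 was low in the RBI2 libraries of the latest label alone, as given above. Tested label by label, NUMA1 passed against CX-5461 at the latest label only. NABP1 was at 1.11% to 2.47% in all 6 RBI2 libraries and 3.46% to 5.91% in all 6 CX-5461 libraries (-1.31 ± 0.18, edgeR adjusted p = 0.0083), and the control was at 3.60% and 2.95%. The compounds did not overlap, and both control libraries lay above all 6 RBI2 libraries. The higher control library lay within the range of CX-5461 and the lower one between the compounds. Against the control, the share of NABP1 passed the test at no RBI2 label. IDH3A was at 0% in both RBI2 30 min libraries and between 0.412% and 1.16% in the other RBI2 libraries, against 0.802% to 2.99% in CX-5461 (-3.12 ± 0.49, edgeR adjusted p = 0.016).

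Members that were at 0 in both libraries of a group and present elsewhere made up many of the largest fitted changes. RNF10-221, of a RING finger protein, was at 0 in both control libraries and at 1.51 to 5.03 CPM in all 12 treated libraries. By group it was at least 18-fold to at least 35.9-fold higher, and it passed the test against the control in all 6 groups (edgeR adjusted p = 0.012 to 0.033). Under the alternatives the call was kept in 18 settings and lost in 3 for CX-5461 labelled 10 min. For the other groups it was kept in 6 to 9 and lost in 12 to 15, always with the same direction. GUK1-202, of guanylate kinase, was at 0 in the control and in RBI2 labelled 30 min and at 8.82 to 39.8 CPM elsewhere. CMBL-204, of a hydrolase that activates ester prodrugs, was at 0 in the control and in RBI2 labelled 120 min and at 1.22 to 5.84 CPM elsewhere. SREBF1-224, of the transcription factor for lipid synthesis genes, was at 0 in the control, CX-5461 10 min and RBI2 120 min libraries and at 2.21 to 6.61 CPM elsewhere.

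HNRNPH1-242, of an hnRNP protein that binds G-rich RNA, was at 0 in both RBI2 10 min libraries, at least 75.6-fold lower than the control, and at 1.13 to 11.9 CPM elsewhere. FBXW5-205 and FDPS-219, of a ubiquitin ligase adaptor and of farnesyl diphosphate synthase, were at 0 in RBI2 labelled 30 min alone. In none of these genes did the share over all retained-intron transcripts pass the test in the same comparison. Salmon divides the reads that several transcripts of a gene could have given, and the files hold no error for that division, so these values were not set against the uncertainty of the assignment.

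The genes with a lower share in CX-5461 labelled 10 min are described here by features of the gene. The level of the other transcripts is the denominator of the share test and sets how precisely a gene can be tested, so it is not independent of the calls. Their transcripts without retained introns were abundant, with a median of 980 TPM per gene against 25.4 TPM over all tested genes, and the main retained-intron transcript of the gene held more intron-only bases, at a median of 52.8% against 28.7%. Their introns were somewhat shorter, at 889 against 1095 bases, with a median GC content of 46.3% against 48.8%, and 97.6% of them ran from GT to AG. Of 85 such introns 10 held an annotated snoRNA (11.8%), against 51 of 6801 (0.75%). The 117 genes higher in RBI2 over all labels had a median of 160 TPM and 49.9% intron-only bases.

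Divided into 4 bins of equal size by the level of the other transcripts of the gene, the median change in CX-5461 labelled 10 min against the control was -0.10 in the lowest bin, then -0.30 and -0.39, and -0.65 in the highest. The highest bin held 43 of the 52 lower genes. By intron-only bases the medians were -0.20, -0.33, -0.43 and -0.49, with 3, 8, 13 and 28 lower genes. RBI2 against CX-5461 over all labels ran the other way, from 0.19 to 0.43 by level and from 0.13 to 0.47 by intron-only bases. By the number of retained-intron reads of the gene the order was the reverse, from -0.56 in the bin with the fewest reads to -0.23 in that with the most, while the lower genes numbered 4, 8, 12 and 28 from the fewest to the most. By the share itself, a part of the test, the medians ran from -0.80 in the bin of the lowest shares to -0.07 in the highest, with 26, 16, 7 and 3 lower genes.

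**Figure D5:**
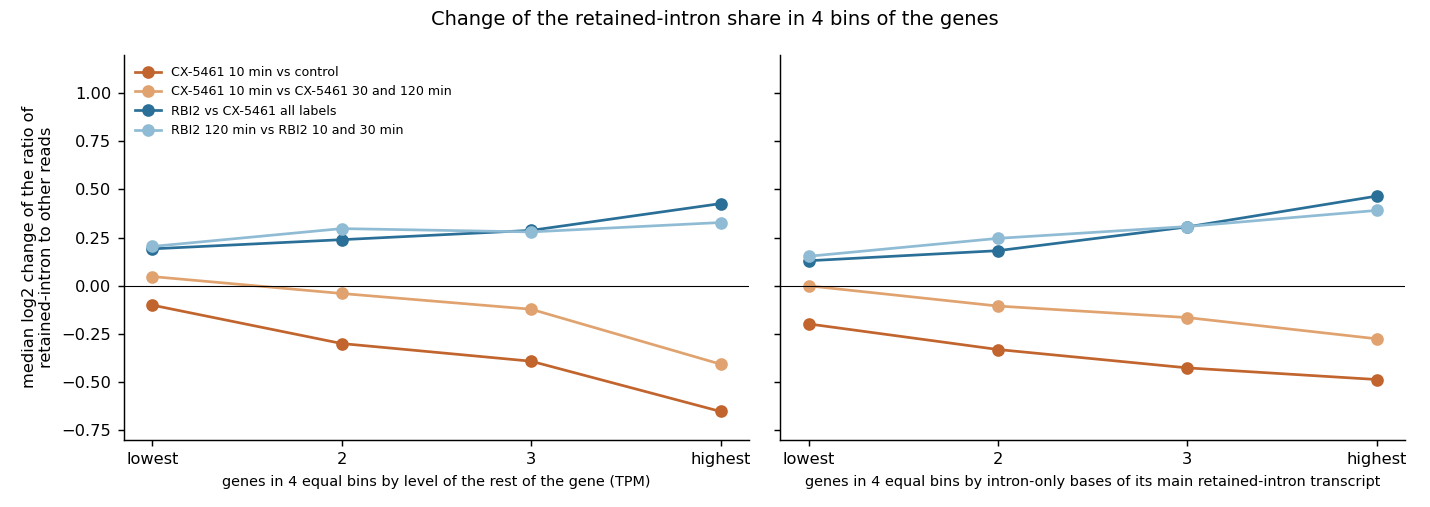
Median log2 change of the ratio of retained-intron to other reads in 4 equal bins of the 4582 tested genes, divided by the TPM of the other transcripts of the gene (left) and by the percent of intron-only bases in its main retained-intron transcript (right). Each line is 1 comparison and the horizontal line marks no change. For CX-5461 labelled 10 min against the control the median goes from -0.10 to -0.65 by level and from -0.20 to -0.49 by intron-only bases.

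Other transcript types that do not encode the main protein were tested in the same way. Transcripts annotated for nonsense-mediated decay gave 0 higher and 0 lower of 3259 genes in CX-5461 labelled 10 min against the control, with a median of -0.26, and transcripts of protein-coding genes with no coding sequence defined gave 0 and 0 of 3321 genes, with a median of -0.28. Over all labels, RBI2 against CX-5461 gave 0 higher and 2 lower for the former and 5 higher and 4 lower for the latter, against 117 and 4 for retained introns. The difference between the types was not tested.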

How the data were processed

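The data are 14 libraries of polyA RNA, 2 for the control and 2 for each compound and label. According to the study's methods, the authors removed reads of ribosomal RNA and quantified the rest against GRCh38 transcripts with Salmon. The submitters' processing notes name STAR 2.7.6a, SAMtools 1.11, bedtools 2.29.2, Salmon 1.3.0 and DESeq2 1.28.1. The deposited files hold, for each transcript, estimated counts, which the authors did not normalize, and TPM, which Salmon scaled by effective length and library total.

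Transcripts were matched to GENCODE 44 by identifier, 225662 of 228754 with an entry, and unmatched transcripts held 1.03% to 1.13% of the reads. Estimated counts were rounded and scaled by TMM, and CPM are rounded counts over the effective library size. Transcripts were filtered with filterByExpr (minimum count 10) and tested with the quasi-likelihood test of edgeR 4.0.16 in R 4.3.3, in 1 model of 7 groups over all 14 libraries, with Benjamini-Hochberg adjustment over all 54804 transcripts. The share test used the summed retained-intron counts and the summed other counts of each gene with a term for each library. A call needed a log2 change of at least 1 in size, with the adjusted p below 0.05. The common biological coefficient of variation was 96.3% for transcripts and 41.0% for shares. Libraries held 14112299 to 24849354 reads. Replicates of a group differed by more than sampling noise. The alternatives were DESeq2 1.42.0 and its size factors, limma 3.58.1 on log2(TPM + 0.5), no filter or a minimum count of 30, other transcript types as the rest of the gene, a replicate block, the compared libraries alone and leaving out each library. A further alternative was the p before adjustment, under which a call cannot be lost. The scripts were tested on simulated data. With the spread of these libraries the share test recovered a minority of the planted changes and the transcript test none, so a count of 0 does not show that no gene or transcript changed. The share test called 1 unchanged gene. The transcript test called nothing at all, so that run cannot show how often it makes false calls. With a lower spread (dispersion 0.02) it recovered 13.5% of the 2-fold and 94.9% of the 16-fold changes and called 2 unchanged transcripts.

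Named were the 10 retained-intron transcripts with the highest mean TPM. For each comparison at 1 label the rule took the 3 largest rises and falls that were called, where the higher group averaged 1 CPM or more and the groups did not overlap. Over all labels it took 5 of each with at least 5 of 6 libraries on one side of the other compound's median. Further named were the 2 genes with the largest rise and fall in share, and up to 4 members that passed in each gene list. Single transcripts and gene shares with a value in the text beyond this rule, such as that of RPS16, were chosen after their values were seen. The members and lists were chosen with earlier results of these data known. 1 result is not reported here. Splice sites were read from the GRCh38 genome with pysam 0.24.0.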

Additional observations from a re-analysis of the deposited data

How the results depend on the processing

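Counts of changed retained-intron transcripts are given in the order RBI2 against the control at 10, 30 and 120 min, CX-5461 against the control at 10, 30 and 120 min, RBI2 against CX-5461 at 10, 30 and 120 min, and RBI2 against CX-5461 over all labels. DESeq2 in place of edgeR gave 91, 159, 304, 387, 109, 156, 296, 60, 325 and 475, and the p before adjustment gave 386, 482, 681, 882, 455, 491, 752, 322, 657 and 867. With a replicate block the counts were 1, 1, 2, 24, 0, 1, 19, 0, 2 and 40. The compared libraries alone gave 0 in all 9 comparisons at 1 label and 123 over all labels. Without a filter the counts were 1 for RBI2 30 min, 6, 1 and 1 for CX-5461, 5, 2 and 2 for RBI2 against CX-5461 and 9 over all labels. limma on TPM gave 18, 15 and 37 for RBI2, 15 and 25 for CX-5461 at 30 and 120 min, and 9 and 33 for RBI2 against CX-5461 at 30 and 120 min.

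Counts of genes with a changed share were, in the same order, 272, 340, 529, 649, 334, 403, 550, 208, 520 and 429 by the p before adjustment, with 446 for CX-5461 10 min against its later labels and 342 for RBI2 120 min against its earlier ones. limma on TPM gave 1, 2, 7, 21, 6, 1, 10, 5, 5 and 19, then 24 and 4. The replicate block gave 1 for RBI2 120 min and 35 for both CX-5461 10 min and RBI2 against CX-5461 at 10 min. The compared libraries alone gave 206 over all labels and 0 in the other 6 comparisons with a call. A minimum count of 30 gave 4 for RBI2 120 min, 91 for CX-5461 10 min, and 94 and 5 for RBI2 against CX-5461 at 10 and 120 min. Protein-coding transcripts as the rest of the gene gave 1 for RBI2 against CX-5461 at 30 min.

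As settings added after seeing the data, transcripts of nonsense-mediated decay as the rest of the gene gave 1 for RBI2 120 min and 0 in the comparisons with CX-5461 10 min and over all labels. Transcripts with no coding sequence defined as the rest gave 0 in the comparisons with CX-5461 10 min, 1 and 0 for RBI2 against CX-5461 at 30 and 120 min, 3 over all labels and 4 for RBI2 120 min against its earlier labels. These 2 settings reversed 7 values of named genes, none past the threshold after reversal. With decay transcripts as the rest PTBP1 was at 5.95 in CX-5461 10 min against the control and at -1.29 in RBI2 against CX-5461 over all labels, and SNRNP70 at -0.52 at 10 min and -0.50 over all labels. With the other type RACK1 was at 0.45 in CX-5461 10 min against the control and -1.29 in RBI2 against CX-5461 at 10 min, and CCN1 at -0.036 over all labels. The cause was not tested.

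Leaving out 1 library gave 0 to 349, 1 to 400 and 2 to 420 transcripts for RBI2 against the control, 3 to 484, 0 to 423 and 0 to 333 for CX-5461, and 3 to 49, 0 to 13, 1 to 38 and 9 to 96 for RBI2 against CX-5461. For genes the ranges were 0 to 250, 0 to 322 and 0 to 268 for RBI2, 7 to 510, 0 to 353 and 0 to 265 for CX-5461, 0 to 86, 0 to 4, 0 to 13 and 37 to 184 for RBI2 against CX-5461, 6 to 80 for CX-5461 10 min against its later labels and 0 to 3 for RBI2 120 min against its earlier ones. The highest counts against the control came without control replicate 1. The difference in the read share of retained-intron transcripts, RBI2 minus CX-5461, was between 0.087 and 0.188 percentage points, and treated minus control between -0.046 and 0.396. Without the 10 transcripts with the most reads these differences were 0.305 and -0.247, and treated minus control was -0.127 by TPM and -0.149 without mitochondrial transcripts.

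The size factors of DESeq2 kept all 10 counts of transcripts within 1.5 times. Of 2317 values of 111 named results under the alternatives, 1200 kept direction and side of the threshold, 1110 kept direction only and 7 reversed. The 1200 include all 111 values under the p before adjustment, which keeps every call by its rule. Libraries with the same replicate number share only that number. Of 21 pairs of groups their deviations correlated between -0.103 and 0.137, with 2 over 0.1.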
